A study of Mus musculus with 90 samples.

Results

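Interferon-stimulated genes were described in mouse liver as a set of 38 genes, out of 24475 genes in each of the 2 count tables of the study. The 38 were chosen by symbol and matched to the Entrez identifiers of the tables. All 38 were present in both tables and passed the filter on low counts in both, among 13574 genes tested in experiment 1 and 12847 in experiment 2. By role they were 17 antiviral effectors, 6 oligoadenylate synthetases and their relatives, 3 nucleic acid sensors, 4 genes of interferon signalling and its feedback, 4 guanylate-binding proteins, 3 genes of antigen processing and 1 chemokine.

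The study sequenced polyadenylated RNA from 90 liver samples in 9 groups of 10, to follow the pathway downstream of the hepatic glucagon receptor. The receptor (gene Gcgr) couples through the stimulatory G protein alpha subunit (Gnas) to cyclic AMP, which acts on protein kinase A (PKA) and on the exchange factor Epac2 (gene Rapgef4). Experiment 1 held a group labelled Control and 4 knockdown (KD) groups, Gcgr KD, Gnas KD, PKA KD and Epac2 KD, each made with a short hairpin RNA in an AAV8 vector. Experiment 2 crossed a control vector or knockdown of Prkar1a, a regulatory subunit that holds PKA inactive, with a control antibody or an antibody to the glucagon receptor (Gcgr mAb). Its groups were Control AAV + Control mAb, Control AAV + Gcgr mAb, Prkar1a KD + Control mAb and Prkar1a KD + Gcgr mAb. The labels do not say what the control vector carried, which PKA subunit the PKA KD hairpins target, or the strain, sex, age, doses and times, and no uninjected group was analysed here. In experiment 1, the treatment label of replicate 10 of each of the 4 knockdown groups ends in an extra 0 (such as PKA KD0), and these samples were grouped by their titles. Leaving out any one of them moved no count of called members by over 1.5 times. Samples of a group are numbered from 1 to 10, with no statement that these are separate mice, and the p-values below reflect only how far samples of a group vary, which may be technical.

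Library totals ran from 20.8 to 33.7 M counts in experiment 1 (median 25.3) and from 8.87 to 19.5 M counts in experiment 2 (median 16.5). The targeted genes went with the labels, given as medians in CPM (a gene's counts scaled to a fixed library total): Gcgr went from 172 in Control to 44.9 in Gcgr KD, Gnas from 359 to 44.7 in Gnas KD, Rapgef4 from 89 to 8.82 in Epac2 KD, and Prkar1a from 122 to 32.8 in Prkar1a KD + Control mAb. In PKA KD both catalytic subunit genes were low, with Prkaca at 9.44 against 95.7 and Prkacb at 8.94 against 40.4. The liver label was borne out by 10 hepatocyte markers, whose summed level was between 41300 and 136000 CPM in all libraries. In bulk tissue, fewer cells of a type and less RNA per cell cannot be told apart.

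Interferons are secreted when a cell's sensors detect foreign or misplaced nucleic acid. They bind surface receptors and, through JAK kinases, activate STAT2, which together with IRF9 is part of a complex that binds the interferon-stimulated response element (ISRE) in the promoters of target genes. Most of the targets block viral replication, display peptides to T cells, or feed back on the pathway, and hepatocytes as well as Kupffer cells, the macrophages of the liver, can express them.

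The ISRE is visible in the promoters of many members, and the stretches below are shown because they belong to genes that the results turn on. Promoter windows of 300 bases, from 250 before to 50 after the start site, came from RefSeq on GRCm38.p6 and were found for 29 members. The core GAAANNGAAA was searched on both strands, so that it may stand as its reverse complement, and overlapping matches were counted. It was in 17 of the 29 windows (58.6%, exact 95% interval 38.9 to 76.5), in 22 of 41 windows of other interferon-stimulated genes (53.7%) and in 1079 of the windows of 27025 genes (3.99%). With 1 or 3 bases instead of 2 between the repeats, the share among the members was 20.7% in either case. Among all genes it was 3.7% with 1 base and 3.17% with 3, so the members were above all genes at these spacings too. Capitals mark the ISRE core, and each stretch reads 5′ to 3′ along the strand of its gene.
Rsad2, chr12:26456538-26456597, minus strand: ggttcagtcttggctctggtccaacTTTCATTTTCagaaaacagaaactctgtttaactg
Ifit1, chr19:34640760-34640838, plus strand: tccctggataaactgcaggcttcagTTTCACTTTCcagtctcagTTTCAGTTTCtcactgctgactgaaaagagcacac
Ifit3, chr19:34583348-34583441, plus strand: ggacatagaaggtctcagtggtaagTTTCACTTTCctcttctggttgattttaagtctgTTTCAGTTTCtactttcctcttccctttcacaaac
Isg15, chr4:156200850-156200921, minus strand: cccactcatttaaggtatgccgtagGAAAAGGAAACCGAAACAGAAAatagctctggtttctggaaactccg
Trim30a, chr7:104465195-104465254, minus strand: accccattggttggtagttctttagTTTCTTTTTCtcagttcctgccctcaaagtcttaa
Stat2, chr10:128270251-128270310, plus strand: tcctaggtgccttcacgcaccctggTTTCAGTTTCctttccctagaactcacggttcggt
Gbp3, chr3:142559974-142560039, plus strand: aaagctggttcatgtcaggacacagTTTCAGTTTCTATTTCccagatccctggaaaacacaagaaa
Gbp7, chr3:142530258-142530317, plus strand: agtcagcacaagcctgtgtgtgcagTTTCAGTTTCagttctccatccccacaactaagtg
Cxcl10, chr5:92349068-92349127, minus strand: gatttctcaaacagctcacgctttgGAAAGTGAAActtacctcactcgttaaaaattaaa

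Isg15 carried 3 overlapping cores in 1 run, and Ifit1 and Ifit3 carried 2 each. The stretch of Ifit3 was identical to that of its neighbour Ifit3b. Counted from the start site, the core of Rsad2 was at position -120, that of Stat2 at -222, and that of Cxcl10 at -213. A second motif, the GAS core TTCNNNGAA (gamma-activated sequence), was in 6 of 29 windows (20.7%) against 9.55% of all windows. Windows without the ISRE core included those of Irf7, Irf9, Psmb8, Psmb9, Tap1, Cmpk2 and Oasl2. No window was found for Mx1, Mx2, Usp18, Oas2, Dhx58, Zbp1, Gbp6, Parp14 or Ifi27.

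Several members lie side by side in the genome (GRCm38.p6 annotation of RefSeq). Rsad2 (chr12:26442743-26456452) is next to Cmpk2 (chr12:26469117-26479837), and Ifit2, Ifit3, Ifit3b and Ifit1 follow one another on chromosome 19 between 34550550 and 34650009. Oas2, Oas3, Oas1g and Oas1a lie on chromosome 5 between 120730333 and 120907544, with Oasl2 and Oasl1 on the same chromosome between 114896926 and 114937911. Gbp7, Gbp3 and Gbp2 lie on chromosome 3 between 142530336 and 142638008, and Psmb9, Tap1 and Psmb8 on chromosome 17 between 34182030 and 34201454. Neighbours of shared origin also share sequence, which makes the division of reads between them uncertain. Of all 50-base words in the exons of Ifit3, 51.2% were also in Ifit3b, 57.6% of those of Oas1a were in Oas1g, and 65% of those of Gbp6 were in Gm43302.

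Levels of these genes were mostly higher in Gcgr KD and PKA KD than in Control, mostly lower in Epac2 KD, and moved little in Gnas KD. Each knockdown group differed from Control in the hairpin it received as well as in its target. Changes that go with the target and changes that go with the hairpin or vector cannot be told apart here. At an adjusted p under 0.05 (edgeR's quasi-likelihood test, Benjamini-Hochberg over all genes tested), Gcgr KD had 19 members higher and 0 lower than Control, where 2.9% of all genes were higher and 4.33% lower. PKA KD had 22 members higher and 1 lower, against 17.7% and 14.8% of all genes. Epac2 KD had 0 higher and 13 lower, against 1.82% and 2.74%. Gnas KD had 1 higher and 0 lower, against 6.83% and 8.32%. The median log2 fold change of the 38 was 0.54 with Gcgr KD, 0.49 with PKA KD, -0.48 with Epac2 KD and -0.01 with Gnas KD, while the median over all genes was between 0.01 and 0.02 in each. For the counts of 0, DESeq2 and limma-voom also gave 0 in that direction, and members at an unadjusted p under 0.05 in either direction numbered 25 with Gcgr KD, 25 with Epac2 KD and 6 with Gnas KD. The 4 comparisons share the Control libraries.

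The groups were also compared directly. In Gcgr KD against Epac2 KD, 35 members were higher and 0 lower (edgeR, DESeq2 and limma-voom), with 9.72% and 11.1% of all genes and a member median of 1.06, and 36 members had an unadjusted p under 0.05. In PKA KD against Epac2 KD, 31 were higher and 1 lower, with 18.4% and 17.3% of all genes and a member median of 1.01. In PKA KD against Gcgr KD, 2 were higher (Psmb8 and Psmb9) and 3 lower (Stat2, Irf9 and Eif2ak2), with 17.3% and 14.4% of all genes. A pair of contrasts with Gnas KD was added after the values had been seen. Gcgr KD had 19 members higher and 0 lower than Gnas KD, with 3.47% and 2.37% of all genes and a member median of 0.52. DESeq2 and limma-voom gave 0 lower there too, and 29 members had an unadjusted p under 0.05. PKA KD had 18 higher and 1 lower than Gnas KD, with 18.4% and 15.6% of all genes and a member median of 0.40. Without Gcgr KD replicate 5, the library with the highest member level, Gcgr KD had 15 members higher than Control, 30 higher than Epac2 KD and 12 higher than Gnas KD.

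The mean of log2 CPM over the 38 members, set to 0 at the mean of the control group, gives 1 level for each library. Control libraries had an SD of 0.179 (n = 10). The level was 0.498 ± 0.418 (SD, n = 10) in Gcgr KD, 0.456 ± 0.328 in PKA KD, 0.0282 ± 0.0829 in Gnas KD and -0.512 ± 0.179 in Epac2 KD. In Gcgr KD 6 of 10 libraries were above the highest Control library, in PKA KD 8 and in Gnas KD 0, and 8 of 10 Epac2 KD libraries were below the lowest Control library. The spread was wide in Gcgr KD, from 0.0628 to 1.39, and in PKA KD, from -0.177 to 0.962.

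**Figure D1:**
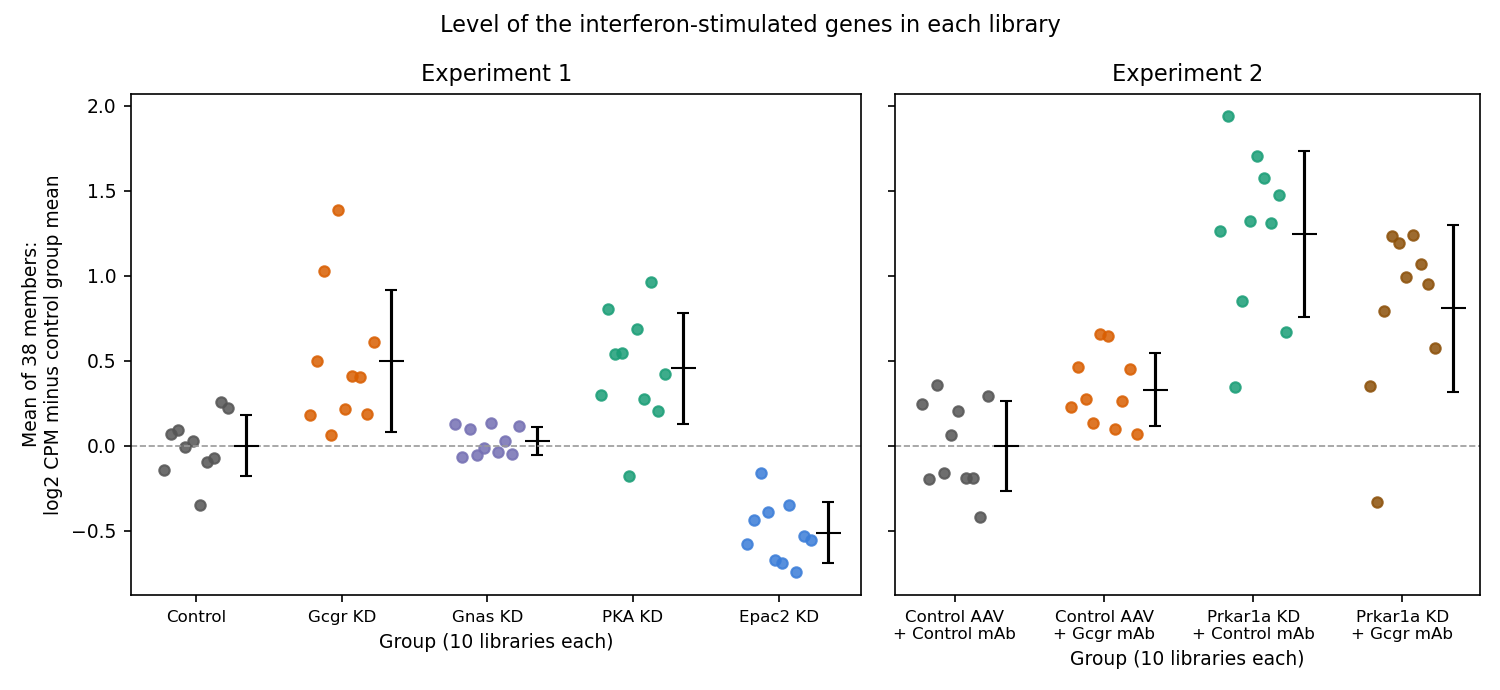
Level of the 38 interferon-stimulated genes in each library (y axis: mean of log2 CPM over the 38 members minus the mean of the control group of the same experiment; x axis: group). Points are libraries, 10 in each group, and the black mark is the mean ± SD. Epac2 KD libraries sit between -0.744 and -0.163, while Prkar1a KD + Control mAb libraries sit between 0.344 and 1.94.

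Among the antiviral effectors, 13 of 17 rose with Gcgr KD and 13 of 17 with PKA KD, with medians of 0.79 and 0.70, and 5 of 17 fell with Epac2 KD. Rsad2, which encodes viperin, an enzyme that makes a chain-terminating nucleotide, had the largest rise in Gcgr KD. Its lowest, median and highest values were 12.4, 17.5 and 25.4 CPM in Control, 17.9, 40 and 101 in Gcgr KD, and 29, 43.5 and 80.1 in PKA KD. They were 14, 18 and 29.6 CPM in Gnas KD and 6.17, 10.1 and 15.1 in Epac2 KD. All 10 PKA KD libraries and 9 of 10 Gcgr KD libraries were above the highest Control library, whereas 9 of 10 Epac2 KD libraries were below the lowest. The log2 fold changes of Rsad2 were 1.41 ± 0.216 (SE, adjusted p = 8.95e-06) with Gcgr KD, 1.40 ± 0.216 (9.76e-07) with PKA KD and -0.87 ± 0.22 (0.0109) with Epac2 KD. With Gnas KD the log2 fold change was 0.15 ± 0.214 (0.697).

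Mx1, a dynamin-like GTPase that traps viral nucleocapsids, was the member called in Gnas KD, and its gene model in RefSeq, like that of Mx2, is a transcribed pseudogene. It ran from 1.48 to 2.09 CPM in Control (median 1.85), from 2.16 to 7.88 in Gcgr KD (3.77), from 2.34 to 4.83 in PKA KD (3.08) and from 1.8 to 3.58 in Gnas KD (2.89). Neither the Gcgr KD nor the PKA KD libraries overlapped with Control, and 8 of 10 Gnas KD libraries lay above it. The changes were 1.27 ± 0.19 (adjusted p = 4.98e-06), 0.92 ± 0.19 (0.000126) and 0.61 ± 0.191 (0.0226). Gcgr KD was also higher than Gnas KD for Mx1, by 0.66 ± 0.185 (0.0196). The limma-voom test called no member in Gnas KD.

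Ifit3, one of the IFIT proteins that bind foreign RNA and the complexes they form, rose by 1.04 ± 0.156 with Gcgr KD (adjusted p = 5.68e-06) and by 0.73 ± 0.155 with PKA KD (0.000181), and fell by 0.60 ± 0.158 with Epac2 KD (0.0151). Its lowest, median and highest values were 17.3, 21.2 and 29.4 CPM in Control, 28.7, 40.7 and 83.6 in Gcgr KD, 16.9, 35.9 and 53.6 in PKA KD and 10.4, 12.9 and 21.4 in Epac2 KD. In Gcgr KD 9 of 10 libraries exceeded every Control library. Cmpk2, a mitochondrial nucleotide kinase and the genomic neighbour of Rsad2, went from a median of 10.3 CPM in Control (7.33 to 11) to 18.3 in Gcgr KD (8.24 to 43.9) and 15.8 in PKA KD (11.3 to 24.6). Its PKA KD and Control libraries did not overlap. The change was 1.15 ± 0.187 with Gcgr KD (2.74e-05) and 0.74 ± 0.186 with PKA KD (0.00142).

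Isg15, the ubiquitin-like protein that is conjugated to other proteins, was less even between libraries. Its values were 8.25, 10.8 and 17.7 CPM in Control, 8.65, 14.3 and 55.9 in Gcgr KD, and 9.64, 17.7 and 38.1 in PKA KD. Only 3 of 10 Gcgr KD libraries lay above the highest Control library. The change with Gcgr KD was 0.78 ± 0.241 (adjusted p = 0.0356), and without replicate 5, at 55.9 CPM, it was 0.46 and no longer called (0.162). The call was also lost by limma-voom, with no filter on low counts, with the replicate block, in a fit of only the groups compared and without any one of 8 other libraries. In PKA KD 5 of 10 libraries were above Control, with a change of 0.69 ± 0.24 (0.0219). Effectors that did not pass the test in Gcgr KD were Mx2, Ifi27, Herc6 and Bst2, of which Herc6, a ligase for ISG15, rose with PKA KD by 0.64 ± 0.151 (0.000625) and fell with Epac2 KD by 0.56 ± 0.154 (0.0223).

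**Figure D2:**
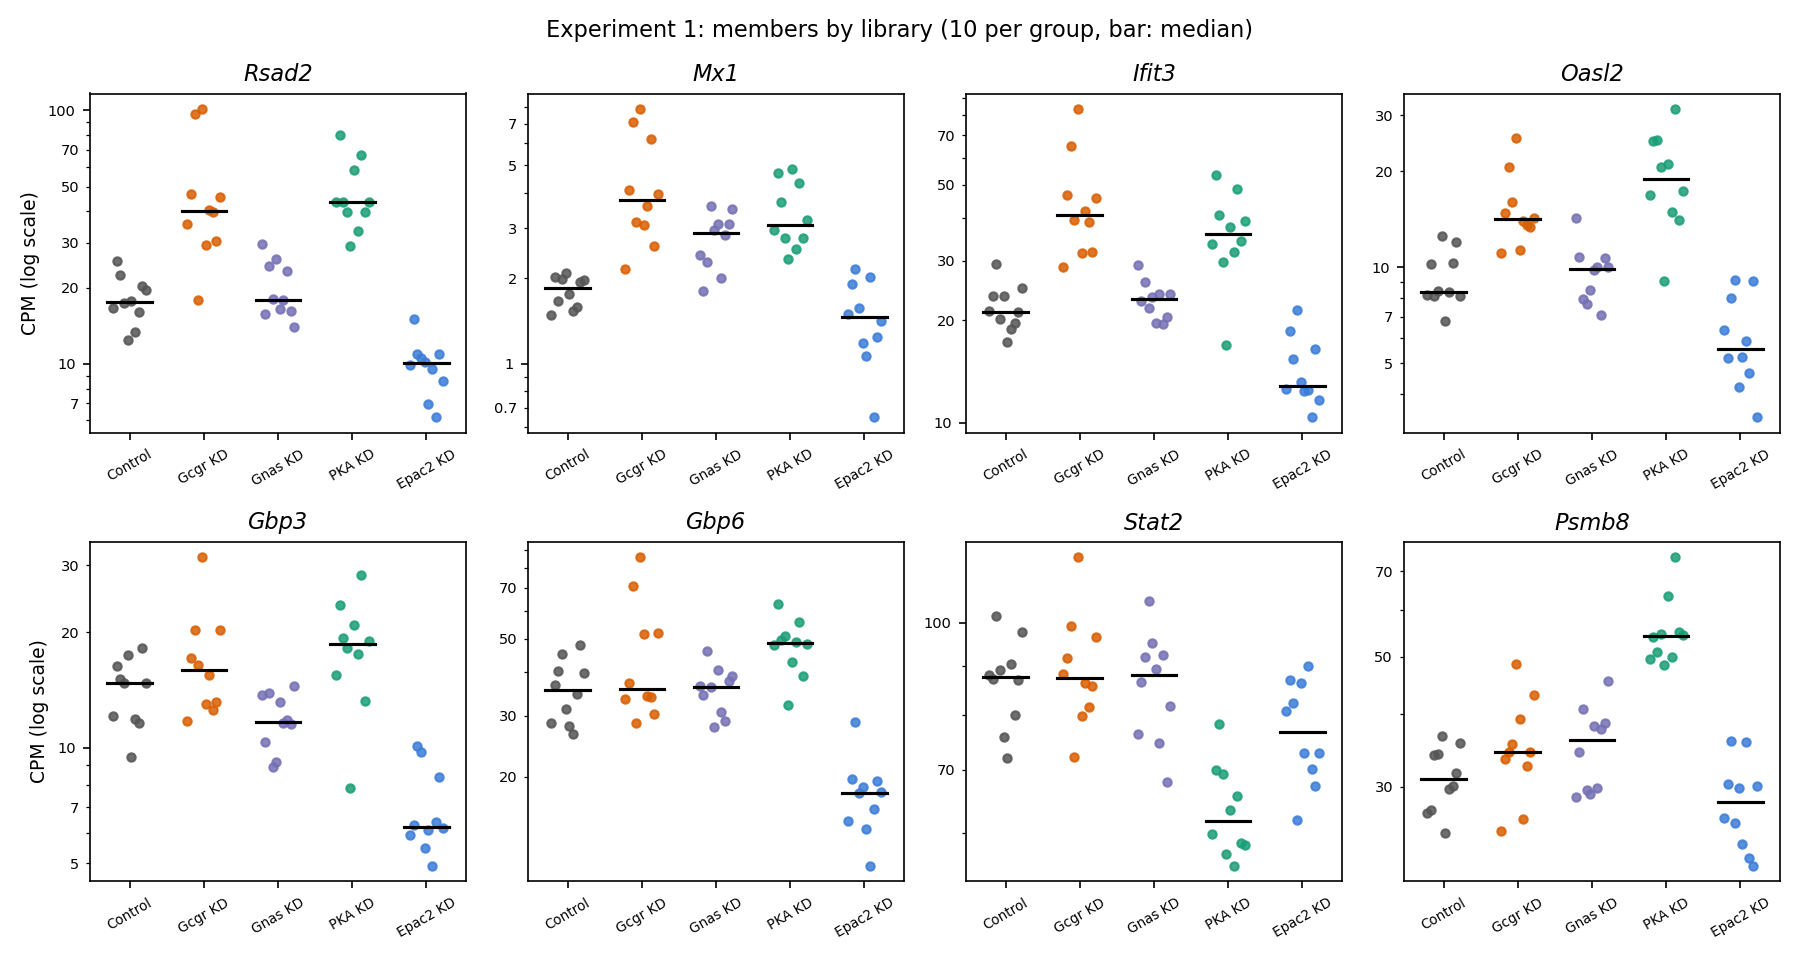
CPM of 8 members in the libraries of experiment 1 (y axis: CPM on a log scale; x axis: group). Points are libraries, 10 in each group, and the black line is the median. Psmb8 runs from 48.4 to 73.9 CPM in PKA KD, above every Control library, while Gbp3 and Gbp6 are low in Epac2 KD.

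The oligoadenylate synthetases make the second messenger that activates RNase L, which degrades RNA, and the OAS-like proteins are their relatives. With Gcgr KD 4 of 6 rose (median 0.71), with PKA KD 3 of 6 rose (median 0.53), and with Epac2 KD 1 of 6 fell (median -0.41). Oasl2 had values of 6.76, 8.39 and 12.5 CPM in Control, 11.1, 14.1 and 25.4 in Gcgr KD, 9.07, 19 and 31.4 in PKA KD and 3.39, 5.54 and 9.12 in Epac2 KD. In PKA KD 9 of 10 libraries were above Control, with a change of 1.07 ± 0.172 (adjusted p = 2.06e-06), and in Epac2 KD 7 of 10 were below it, with a change of -0.60 ± 0.176 (0.0341). Oas2 had medians of 4.71 CPM in Control and 7.51 in Gcgr KD, and 8 of 10 Gcgr KD libraries lay above the Control range of 3.48 to 6.85. It rose with Gcgr KD by 0.59 ± 0.147 (0.00694), while its change was 0.33 ± 0.147 with PKA KD (0.0794) and 0.03 ± 0.149 with Epac2 KD (0.955). Oas2 was the 1 member of 38 with a positive change in Epac2 KD.

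Of the 3 sensors, Ifih1 (MDA5) and Dhx58 (LGP2) detect double-stranded RNA in the cytosol and Zbp1 detects Z-form nucleic acid. Ifih1 had medians of 40 CPM in Control (28.3 to 45.7), 51.7 in Gcgr KD (33.4 to 73.8) and 51.2 in PKA KD (29.2 to 66). It rose by 0.41 ± 0.12 (adjusted p = 0.0241) and by 0.38 ± 0.12 (0.011), with 6 and 7 of 10 libraries above Control. Without Gcgr KD replicate 5 the first change was 0.36 and not called (0.0556). Dhx58 rose with Gcgr KD and Zbp1 with PKA KD, and none of the 3 was called in Epac2 KD.

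None of the 4 signalling members was called higher than Control in Gcgr KD or PKA KD, and whether they differed from the effectors was not tested. With Gcgr KD all 4 changes were positive (0.01 to 0.50), all 4 were called higher than in Epac2 KD, and Irf7 and Usp18 were called higher than in Gnas KD. Stat2, a subunit of the ISRE-binding complex, ran from 72 to 102 CPM in Control (median 87.7), from 72.1 to 117 in Gcgr KD (87.4) and from 55.4 to 78.2 in PKA KD (61.7). In PKA KD 9 of 10 libraries were below the lowest Control library, and the change was -0.45 ± 0.0783 (adjusted p = 7.32e-06). The direct difference between PKA KD and Gcgr KD was -0.50 ± 0.0783 (1.39e-06). Irf7, a transcription factor that amplifies interferon production, changed by 0.39 ± 0.204 with Gcgr KD (0.262) and by 0.06 ± 0.204 with PKA KD (0.846). In Epac2 KD, Irf7 (-0.71 ± 0.206, 0.0306), Irf9 (-0.49 ± 0.11, 0.00276) and Usp18, which removes ISG15 and brakes the receptor (-0.74 ± 0.188, 0.0112), all fell. Irf9, the DNA-binding subunit of the complex, had medians of 36.1 CPM in Control (25 to 39.5) and 24.1 in Epac2 KD (21.1 to 27.5), with 6 of 10 Epac2 KD libraries below every Control library. Irf7 had a median of 30.8 CPM in Epac2 KD (23.1 to 53.4) against 52.9 in Control (33.6 to 85.1).

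Guanylate-binding proteins are GTPases that attack the vacuoles of intracellular microbes, and Gbp3 and Gbp6 had the largest falls of the set in Epac2 KD. There 3 of 4 fell, with a median of -0.89, and Gbp2, with medians of 5.67 CPM (3.61 to 13.2) against 11.2 in Control (5.17 to 18.7), had a change of -0.77 ± 0.24 (adjusted p = 0.0508). Gbp6 ran from 26.6 to 47.8 CPM in Control (median 35.6) and from 11.1 to 28.8 in Epac2 KD (18), with 9 of 10 libraries below Control. Its change was -1.002 ± 0.16 (1.85e-05). Gbp3 went from 14.8 CPM (9.45 to 18.2) to 6.23 (4.93 to 10.1), with 8 of 10 libraries below Control and a change of -1.02 ± 0.167 (2.57e-05). Gbp7 went from 24 CPM (15.4 to 27.9) to 13.6 (12.5 to 20), with 7 of 10 libraries below Control and a change of -0.66 ± 0.136 (0.000912). None of the 4 was called in Gcgr KD by edgeR, and Gbp6 alone rose in PKA KD, by 0.41 ± 0.157 (0.0371).

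Antigen processing and the chemokine completed the set. Psmb8 and Psmb9 are catalytic subunits of the immunoproteasome and Tap1 is a subunit of the peptide transporter, and all 3 rose with PKA KD and with no other knockdown of experiment 1. Psmb8 had values of 25.1, 30.9 and 36.6 CPM in Control, 25.2, 34.4 and 48.6 in Gcgr KD and 48.4, 54.3 and 73.9 in PKA KD. The PKA KD and Control libraries did not overlap, and the change was 0.83 ± 0.101 (adjusted p = 3.56e-09). PKA KD was higher than Gcgr KD by 0.65 ± 0.101 for Psmb8 (1.12e-06) and by 0.61 ± 0.116 for Psmb9 (4.04e-05). For Tap1 that difference was 0.23 ± 0.106 (0.0979). Cxcl10, which attracts T cells, had medians of 6.96 CPM in Control (2.86 to 12.4) and 3.84 in Epac2 KD (1.53 to 6.47), a change of -0.88 ± 0.201 (0.00383). Its changes with Gcgr KD and PKA KD were 0.29 ± 0.195 (0.4) and 0.35 ± 0.194 (0.169).

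Gene by gene, 16 members were called higher in both Gcgr KD and PKA KD, 3 in Gcgr KD but not PKA KD (Oas2, Dhx58 and Eif2ak2) and 6 in PKA KD but not Gcgr KD (Herc6, Zbp1, Gbp6, Psmb8, Psmb9 and Tap1). Of the 13 members lower with Epac2 KD, 5 were higher with Gcgr KD (Rsad2, Ifit1, Ifit3, Parp14 and Oasl2). Another 6 were called with neither Gcgr KD nor PKA KD (Irf7, Irf9, Usp18, Gbp3, Gbp7 and Cxcl10), and the last 2, Herc6 and Gbp6, were higher with PKA KD. These counts rest on the same Control libraries, so they are not independent of one another. Grouped by the ISRE core, the 17 members with it and the 12 without it had median changes of 0.57 and 0.49 with Gcgr KD, 0.38 and 0.67 with PKA KD, and -0.60 and -0.46 with Epac2 KD.

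In experiment 2, nearly the whole set was higher in Prkar1a KD under Control mAb. There too, the knockdown vector and its target cannot be told apart. Under Control mAb, 35 members were higher and 1 lower in Prkar1a KD than in Control AAV, in a comparison where 29.3% of all genes were higher and 26.9% lower. The member median was 1.18 and that of all genes was 0.02. Under Gcgr mAb, 21 were higher and 1 lower, with 26.5% and 26.6% of all genes, and the medians were 0.51 and -0.01. The antibody alone, in Control AAV, had 2 members higher (Parp14 and Trim30a) and 0 lower, with 2.92% and 5.27% of all genes, a member median of 0.33 and 35 of 38 changes positive. DESeq2 and limma-voom also gave 0 lower, and 13 members had an unadjusted p under 0.05. The comparisons with Control AAV + Control mAb share those libraries.

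The antibody on top of Prkar1a knockdown moved no member past the threshold in edgeR, DESeq2 or limma-voom, and 0% of all genes were called higher and 0% lower. All 38 changes were negative there, with a median of -0.42, and 22 members and 846 of all genes had an unadjusted p under 0.05. The interaction, which is the change with Prkar1a KD under Gcgr mAb minus that under Control mAb, was lower than 0 for 9 members and higher for 0, with 1.34% and 2.74% of all genes. Its median over the members was -0.83 and over all genes -0.01, and 30 members had an unadjusted p under 0.05. DESeq2 and limma-voom also gave 0 higher, and called 15 and 5 members lower. The count depended on single libraries: it was 4 without Prkar1a KD + Control mAb replicate 2, 5 without Control AAV + Control mAb replicate 2 or replicate 7, and 17 without Prkar1a KD + Control mAb replicate 3.

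The member level was 1.25 ± 0.49 (SD, n = 10) in Prkar1a KD + Control mAb, 0.808 ± 0.494 in Prkar1a KD + Gcgr mAb and 0.329 ± 0.216 in Control AAV + Gcgr mAb, with an SD of 0.265 in the control group. In these groups 9, 8 and 4 of 10 libraries were above the highest control library. In Prkar1a KD + Gcgr mAb, replicate 2 stood apart from its group, with a level of -0.329 and the lowest total of the experiment, 8.87 M counts. It also had the highest hepatocyte marker sum of its group, 71900 CPM. Why it stood apart was not tested. Without replicate 2, the count under Gcgr mAb was 22 higher and 1 lower, and the interaction had 8 members lower.

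**Figure D3:**
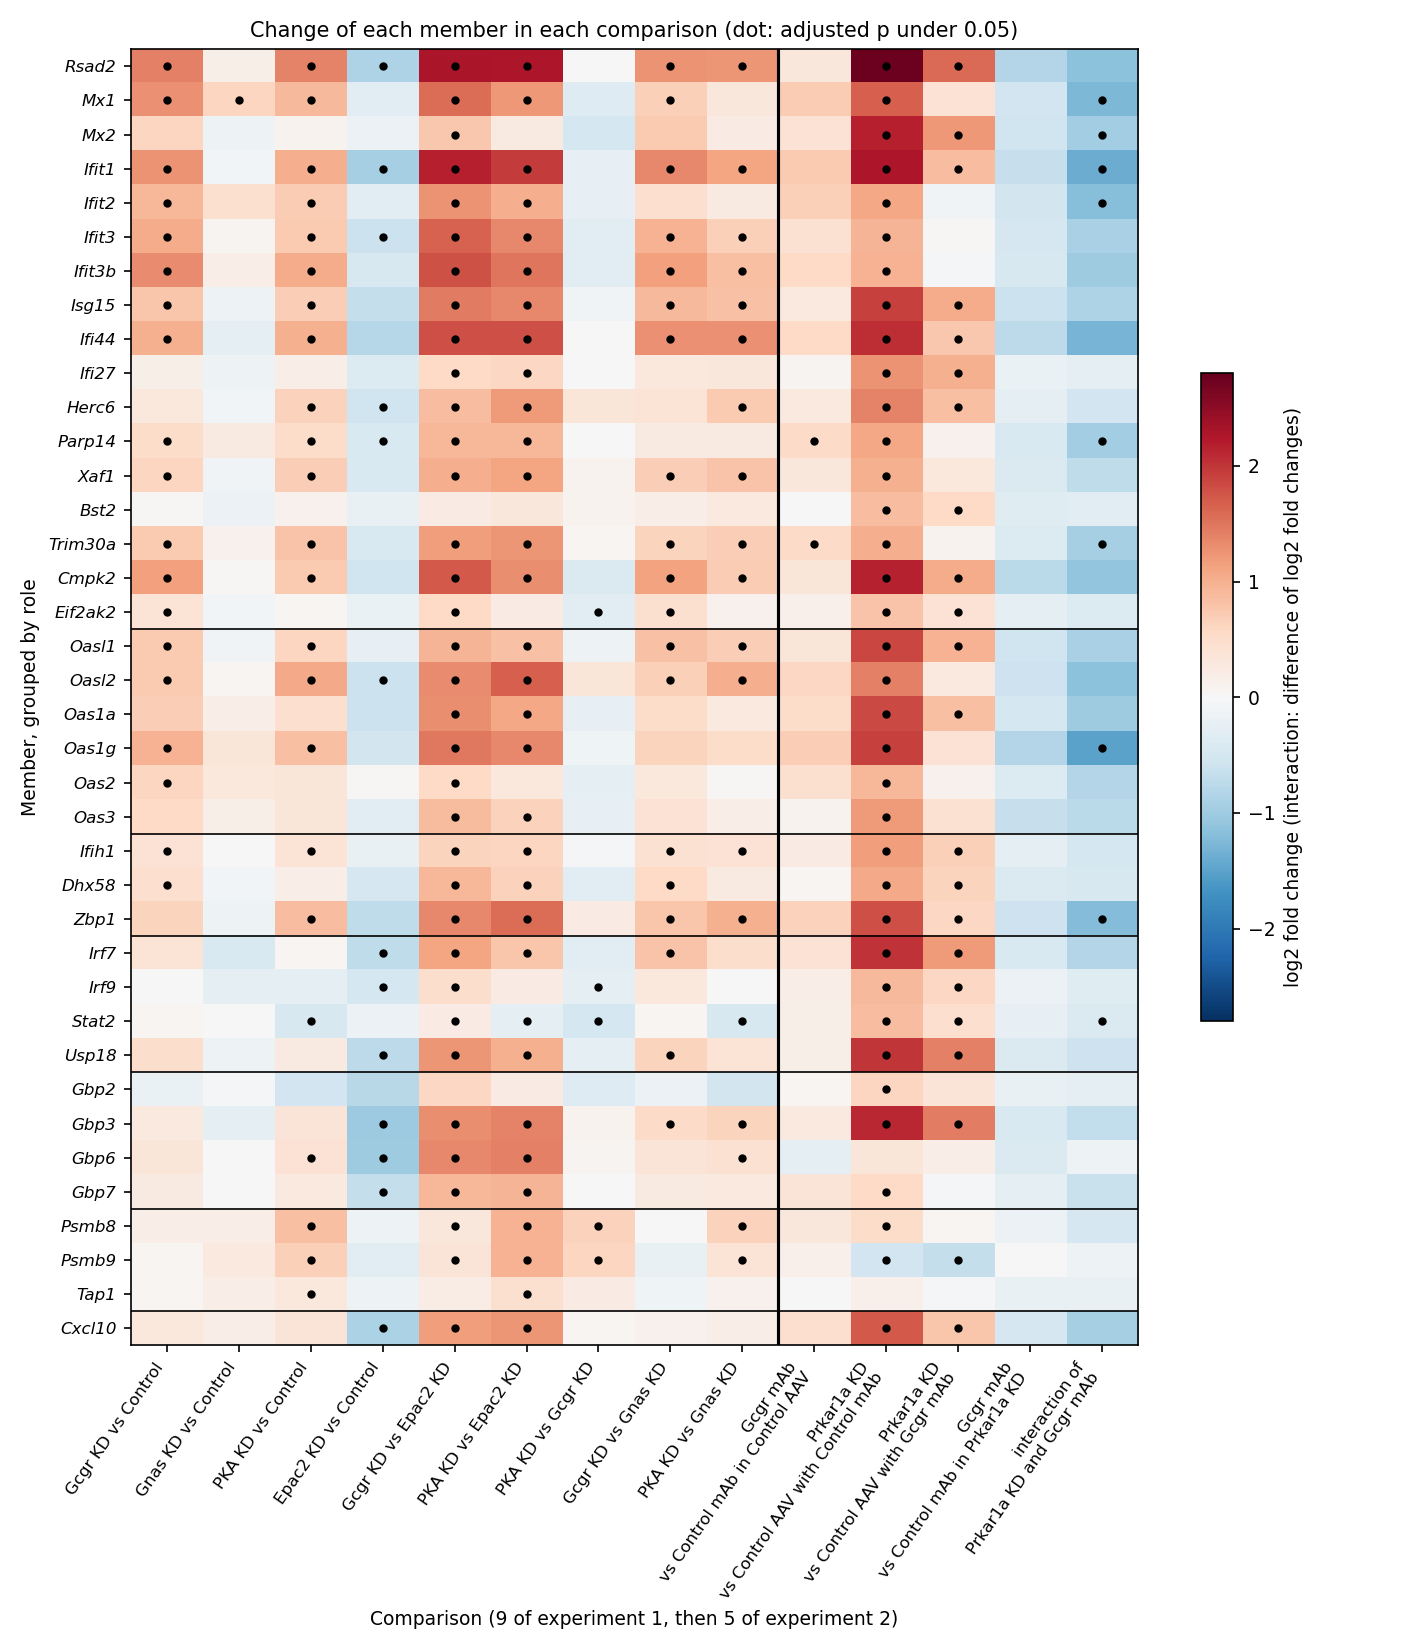
Log2 fold change of each of the 38 members (rows, grouped by role) in 14 comparisons (columns, 9 of experiment 1 and 5 of experiment 2). Colour gives the log2 fold change, or for the interaction a difference of log2 fold changes, and a dot marks an adjusted p under 0.05. Prkar1a KD with Control mAb has dots in 36 rows, Epac2 KD in 13 and Gnas KD in 1.

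All 17 effectors rose with Prkar1a KD under Control mAb (median 1.25) and 10 under Gcgr mAb (median 0.55). Rsad2 had values of 10.1, 19.4 and 28 CPM in Control AAV + Control mAb, 14, 22.5 and 44.9 in Control AAV + Gcgr mAb, 50.1, 117 and 260 in Prkar1a KD + Control mAb and 18, 59.4 and 175 in Prkar1a KD + Gcgr mAb. Under Control mAb the Prkar1a KD and Control AAV libraries did not overlap. The change was 2.74 ± 0.323 (adjusted p = 3.84e-09) there and 1.59 ± 0.311 (4.76e-05) under Gcgr mAb, and the interaction of -1.15 ± 0.434 was not called (0.12).

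Mx2, like Mx1 a GTPase of the myxovirus resistance family, was the member with the smallest p. Its values were 3.83, 4.99 and 7.34 CPM in Control AAV + Control mAb, 4.49, 6.16 and 10.1 in Control AAV + Gcgr mAb, 13, 23.5 and 29.9 in Prkar1a KD + Control mAb and 9.41, 15.3 and 21.9 in Prkar1a KD + Gcgr mAb. All 10 Prkar1a KD libraries under Control mAb, and 9 of 10 under Gcgr mAb, exceeded their own controls. The changes were 2.168 ± 0.168 (adjusted p = 5.08e-14) and 1.20 ± 0.164 (6.92e-08), and the interaction was -0.96 ± 0.232 (0.0124). In experiment 1 no knockdown changed Mx2 past the threshold, with 0.59 ± 0.241 in Gcgr KD (0.132).

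Isg15 had values of 6.6, 12 and 20.8 CPM in Control AAV + Control mAb, 10.6, 14.6 and 21.9 in Control AAV + Gcgr mAb, 21.5, 50.8 and 79.9 in Prkar1a KD + Control mAb and 8.95, 36.6 and 44.1 in Prkar1a KD + Gcgr mAb. Under Control mAb the knockdown libraries were all above the control libraries, and the change was 1.92 ± 0.248 (adjusted p = 2.7e-08). Cmpk2 rose by 2.15 ± 0.245 (1.61e-09) from a median of 8.27 CPM (5.05 to 13) to 41.1 (20.3 to 63.1), with no overlap. Ifi27, a small mitochondrial protein induced by interferon, had medians of 101 CPM (65.1 to 112) in Control AAV + Control mAb and 232 (159 to 292) in Prkar1a KD + Control mAb. It changed by 1.25 ± 0.149 (3.39e-09) and under Gcgr mAb by 0.99 ± 0.148 (4.78e-07), while in experiment 1 its change with PKA KD was 0.19 ± 0.178 (0.455).

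Parp14, a mono-ADP-ribosyltransferase, and Trim30a, a TRIM protein, were the effectors called with the antibody alone. Parp14 had values of 23.9, 32 and 52.8 CPM in Control AAV + Control mAb and 41, 46.8 and 70.9 in Control AAV + Gcgr mAb, with 3 of 10 libraries above the control range. Trim30a had 6.36, 8.28 and 10.1 against 8.69, 10.7 and 16.4 CPM, with 7 of 10 above it. The changes were 0.53 ± 0.165 (adjusted p = 0.0365) and 0.54 ± 0.172 (0.0399). Both also rose with Prkar1a KD under Control mAb, by 1.08 ± 0.165 (6.58e-07) and 1.02 ± 0.171 (2.99e-06), but under Gcgr mAb the changes were 0.12 ± 0.163 (0.571) and 0.09 ± 0.168 (0.671). Their interactions, -0.96 ± 0.232 (0.0124) and -0.93 ± 0.239 (0.0198), were among the 9 called. The others were Mx1 (-1.26), Mx2 (-0.96), Ifit1 (-1.40), Ifit2 (-1.19), Oas1g (-1.50), Zbp1 (-1.22) and Stat2 (-0.40). The antibody comparison, the change under Gcgr mAb and the interaction all use the Control AAV + Gcgr mAb libraries. Members picked as high there therefore tend to have smaller changes under Gcgr mAb and lower interactions. The 2 calls with the antibody alone were unstable: without 1 library at a time 0 to 3 members were called, with no filter on low counts 0, with DESeq2 4 and in a fit of only those groups 7.

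**Figure D4:**
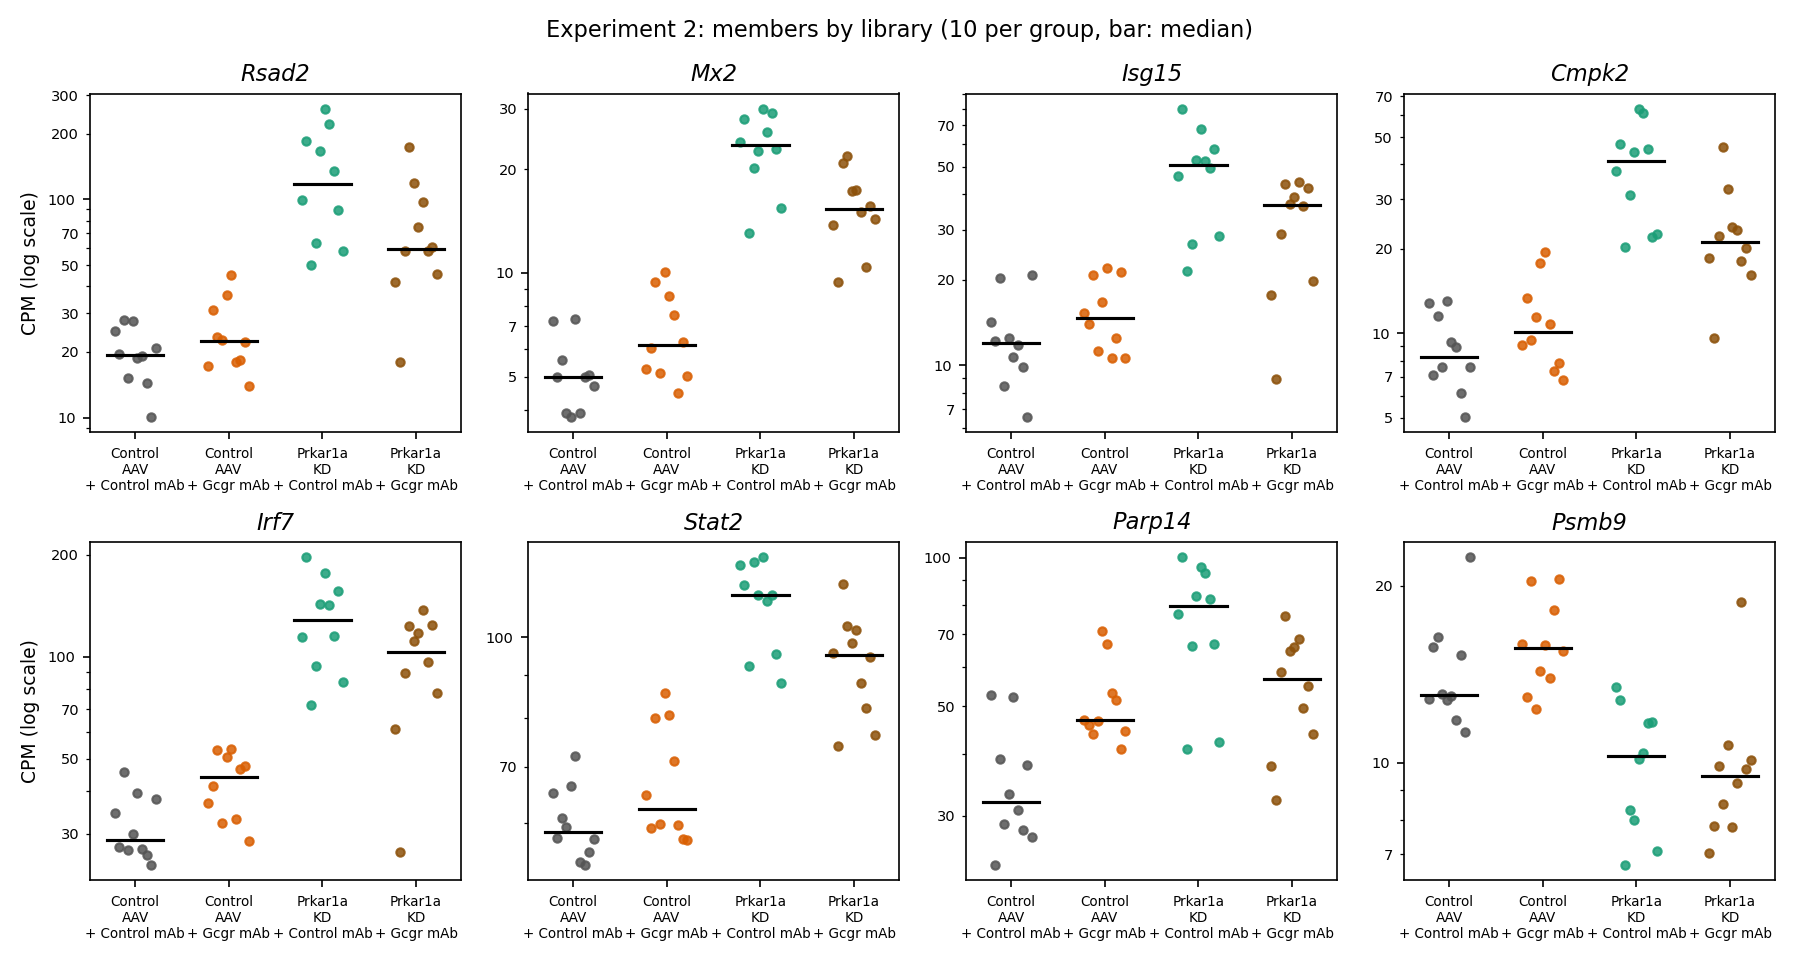
CPM of 8 members in the libraries of experiment 2 (y axis: CPM on a log scale; x axis: group). Points are libraries, 10 in each group, and the black line is the median. Mx2 in Prkar1a KD + Control mAb runs from 13 to 29.9 CPM, above all Control AAV + Control mAb libraries, while Psmb9 has medians of 10.3 and 9.51 CPM in the Prkar1a KD groups against 13.1 and 15.7 in their controls.

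All 6 oligoadenylate synthetases and relatives rose with Prkar1a KD under Control mAb (median 1.63). Under Gcgr mAb 2 of 6 rose, near the 26.5% of all genes. Oas2 went from 2.57 CPM (1.7 to 4.2) to 5.04 (2.76 to 8.72), a change of 0.94 ± 0.247 (adjusted p = 0.00135), and under Gcgr mAb it changed by 0.11 ± 0.243 (0.717). All 3 sensors rose under either antibody. Ifih1 went from 40.2 CPM (24.7 to 55.7) to 95.8 (60 to 124), with no overlap and a change of 1.18 ± 0.143 (5.46e-09), and under Gcgr mAb from 47 (32 to 66.3) to 78.6 (55.3 to 99.7), a change of 0.68 ± 0.142 (0.000114).

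The 4 signalling members all rose with Prkar1a KD under either antibody. Irf7 had values of 24.2, 28.6 and 45.5 CPM in Control AAV + Control mAb, 28.5, 44 and 53.2 in Control AAV + Gcgr mAb, 71.9, 129 and 196 in Prkar1a KD + Control mAb and 26.4, 104 and 137 in Prkar1a KD + Gcgr mAb. Its change was 2.02 ± 0.202 (adjusted p = 6.3e-11) under Control mAb, without overlap, and 1.19 ± 0.197 (3.31e-06) under Gcgr mAb. Stat2 went from 58.5 CPM (53.4 to 72.1) to 112 (88.2 to 124), without overlap, a change of 0.87 ± 0.0842 (1.95e-11). Irf9 went from 28.1 CPM (24.3 to 36.1) to 53.8 (45.1 to 62.5), without overlap, a change of 0.90 ± 0.0937 (9.46e-11). Usp18 changed by 1.99 ± 0.221 (8.13e-10) under Control mAb and by 1.41 ± 0.217 (1.01e-06) under Gcgr mAb, with medians of 11.9 CPM in Control AAV + Control mAb, 13 in Control AAV + Gcgr mAb, 55.9 in Prkar1a KD + Control mAb and 41.1 in Prkar1a KD + Gcgr mAb.

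Among the guanylate-binding proteins 3 of 4 rose under Control mAb and 1 under Gcgr mAb, the latter near the 26.5% of all genes. Gbp3 went from 10.6 CPM (8.5 to 17.1) to 41.4 (25.7 to 81), without overlap, a change of 2.12 ± 0.231 (adjusted p = 5.63e-10), and under Gcgr mAb it changed by 1.43 ± 0.226 (1.52e-06). Gbp6 changed by 0.33 ± 0.217 (0.19) and Gbp2 by 0.60 ± 0.236 (0.0279) under Control mAb. Cxcl10 rose from 4.77 CPM (2.14 to 8.58) to 13.9 (5.52 to 25.9), a change of 1.71 ± 0.316 (1.8e-05), with 9 of 10 libraries above the control range.

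Psmb9 was the only member called lower with Prkar1a KD, under either antibody. Under Control mAb no other member had a negative change, while under Gcgr mAb 5 members had one. It had values of 11.3, 13.1 and 22.3 CPM in Control AAV + Control mAb, 12.4, 15.7 and 20.5 in Control AAV + Gcgr mAb, 6.71, 10.3 and 13.5 in Prkar1a KD + Control mAb and 7.04, 9.51 and 18.7 in Prkar1a KD + Gcgr mAb. Its changes were -0.53 ± 0.145 (adjusted p = 0.00217) and -0.67 ± 0.145 (0.000166), with 6 and 9 of 10 libraries below their controls. Psmb8, from the same locus and the same immunoproteasome, went from 23.6 CPM (20.9 to 39.2) to 36.6 (25.6 to 44.1), a change of 0.52 ± 0.113 (0.000157), and under Gcgr mAb it changed by 0.04 ± 0.113 (0.759). Tap1 was called under neither antibody. In PKA KD of experiment 1, Psmb9 had risen by 0.66 ± 0.116 (9.59e-06).

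The experiments share no libraries, so their calls can be laid over each other. Since 35 of all 38 members were higher with Prkar1a KD under Control mAb, any subset of members overlaps with those 35 at about that share, and the counts below are no more than a description. Of the 22 members higher with PKA KD, 19 (86.4%) were among the 35 higher with Prkar1a KD under Control mAb, and they made up 54.3% of those 35. The 3 left were Gbp6, Psmb9 and Tap1. All 19 members higher with Gcgr KD (100%) were among the 35 as well. Of the 13 lower with Epac2 KD, 12 (92.3%, and 34.3% of the 35) were higher with Prkar1a KD, Gbp6 being the exception. Parp14 and Trim30a, the 2 members higher with the antibody, were both among the 19 higher with Gcgr KD.

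Upstream of the set, 18 interferon genes were in the tables and none had enough counts to be tested. Ifnb1 reached at most 1 count in any library, and Ifng at most 16 counts in experiment 1 and 4 in experiment 2. Of 6 receptor subunits, 0 were called with Gcgr KD and 0 with Epac2 KD. With Gnas KD 4 rose, where 6.83% of all genes were higher, Ifngr1 the most clearly (0.49 ± 0.0831, adjusted p = 3.09e-05). With PKA KD 3 rose, where 17.7% of all genes were higher. Among them were Ifnar2 (0.30 ± 0.0638, 0.000175) and Ifnlr1, the receptor for lambda interferons (1.58 ± 0.348, 0.000298). With Prkar1a KD under Control mAb 5 receptor subunits could be tested, of which Ifngr1 rose (0.35 ± 0.125, 0.0156) and Ifnar2 (-0.26 ± 0.0643, 0.000841) and Ifngr2 (-0.33 ± 0.116, 0.0154) fell. In that comparison 29.3% of all genes were higher and 26.9% lower.

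Of the nucleic acid sensing genes, 20 were tested in experiment 1. With Gcgr KD 3 rose and 2 fell, against 2.9% and 4.33% of all genes. With PKA KD 4 rose and 3 fell, near the shares of all genes (17.7% and 14.8%). The RNA sensor gene Ddx58 (RIG-I) rose in both, by 0.34 ± 0.091 (adjusted p = 0.0143) and 0.30 ± 0.0909 (0.0087), while its adaptor Mavs fell, by 0.24 ± 0.054 (0.00232) and 0.66 ± 0.0542 (4.71e-14). With Prkar1a KD under Control mAb 13 of 19 rose and 1 fell, against 29.3% and 26.9% of all genes. The rises were led by Trim25 (1.01 ± 0.086, 6.04e-13), Adar (1.20 ± 0.107, 1.74e-12) and Ddx58 (1.18 ± 0.128, 3.27e-10). Mavs rose there by 0.36 ± 0.0865 (0.000526).

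A list of 55 other interferon-stimulated genes was read beside the set. Of these, 10 rose and 0 fell with Gcgr KD (median 0.23), against 2.9% and 4.33% of all genes. With PKA KD 14 rose and 4 fell (0.11), against 17.7% and 14.8%. With Epac2 KD 1 rose and 15 fell (-0.25), against 1.82% and 2.74%. With Gnas KD 3 rose and 4 fell (0.03), near the shares of all genes (6.83% and 8.32%). With Prkar1a KD under Control mAb 42 rose and 1 fell (0.61), against 29.3% and 26.9% of all genes. Under Gcgr mAb 22 rose and 3 fell (0.17), against 26.5% and 26.6%. Examples are Lgals3bp, a secreted glycoprotein, which rose with Gcgr KD by 0.58 ± 0.0756 (adjusted p = 3.02e-07) and with PKA KD by 0.87 ± 0.0759 (2.52e-13). Dtx3l and Parp9, partners in a ubiquitin ligase complex, fell with Epac2 KD by 0.51 ± 0.0685 (4.32e-07) and 0.57 ± 0.0905 (1.61e-05). Gbp11 fell with Prkar1a KD under Control mAb by 1.67 ± 0.333 (5.47e-05) while 3 of the 4 guanylate-binding proteins of the set rose. Genes of class I antigen presentation (17 tested) were called 6 higher and 0 lower with PKA KD, against 17.7% and 14.8% of all genes. They were called 1 higher and 11 lower with Prkar1a KD under Gcgr mAb, against 26.5% and 26.6%. There H2-K1, a class I heavy chain, was lower by a log2 change of -0.70 ± 0.068 (2.01e-11).

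Targets of NF-kB and acute phase genes, a separate inflammatory programme, were read for comparison. Of 19 tested, 0 were called with Gcgr KD and 0 with Epac2 KD. With Gnas KD 8 rose, where 6.83% of all genes were higher. With PKA KD 1 rose and 4 fell, where 17.7% of all genes were higher and 14.8% lower. In Gnas KD, where 1 interferon-stimulated member was called, Icam1, an adhesion molecule, rose by 0.72 ± 0.147 (adjusted p = 0.000406) and Lcn2, lipocalin 2, by 2.29 ± 0.59 (0.00543). With Prkar1a KD under Control mAb, 7 of 17 rose, among them Nfkb2, an NF-kB subunit (1.04 ± 0.171, 2.04e-06), and 5 fell, among them Saa1, serum amyloid A (-1.93 ± 0.354, 1.59e-05). In that comparison 29.3% of all genes were higher and 26.9% lower, so the falls were near the share of all genes.

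Markers of other liver cells were read beside these results. All 12 Kupffer cell and macrophage markers had positive changes with Gcgr KD (median 0.43), with 0 called, and their summed level had a median of 265 CPM in Control (219 to 414) and 378 in Gcgr KD (206 to 842). The same 12 were also positive in Epac2 KD (median 0.23, summed median 350 CPM, 162 to 567), where the members fell. Gcgr KD replicate 5, with the highest member level of 1.39, had a Kupffer sum of 242 CPM, and replicate 3, with a level of 1.03, had 842. Dendritic cell markers, counting Bst2, which is also a member of the set, had 1 of 8 called higher with Gcgr KD (Tcf4) and 6 positive, and their sum without Bst2 went from 27.2 CPM (25 to 28.6) to 30.2 (27.2 to 33.9). It was 26.5 CPM (22.7 to 30.4) in PKA KD and 27.3 (24.5 to 33.7) in Epac2 KD. Of the other lists with Gcgr KD, 1 of 10 T and NK cell markers and 0 of 4 B cell markers were positive, and 4 of 5 monocyte and neutrophil markers and 8 of 9 sinusoidal endothelial markers, with none called. In PKA KD the 12 Kupffer cell markers were again all positive, with 0 called and a sum of 362 CPM (180 to 497). In Gnas KD, where 1 member of the set was called, 11 of 12 were positive, 1 was called and the sum was 365 CPM (288 to 604). With the antibody alone all 12 were positive (median 0.48), 1 was called, and the sum went from 190 (164 to 345) to 264 CPM (173 to 688). Most markers of the other cell types were positive with the antibody as well, 9 of 9 endothelial (1 called), 8 of 10 T and NK cell (1 called), 4 of 4 B cell, 6 of 6 monocyte and neutrophil and 5 of 6 dendritic, against 4 of 10 hepatocyte markers. The T and NK cell sum went from 5.4 (2.57 to 14.3) to 8.08 CPM (5.66 to 12.8). With Prkar1a KD under Control mAb 1 of the 12 rose and 1 fell, against 29.3% and 26.9% of all genes. The sum was 240 CPM (152 to 544) in Prkar1a KD + Control mAb. Under Gcgr mAb 0 rose and 9 fell with Prkar1a KD, against 26.5% and 26.6% of all genes. The sum was 199 CPM (134 to 355) in Prkar1a KD + Gcgr mAb, against 264 (173 to 688) in Control AAV + Gcgr mAb.

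Of 6 monocyte and neutrophil markers tested in experiment 2, 3 rose with Prkar1a KD under Control mAb (median 0.998), and the sum went from 7.33 CPM (4.69 to 16.1) to 12.4 (5.27 to 26.5), with 1 of 8 markers at 0 in every Control AAV + Control mAb library. For the lists that follow, 29.3% of all genes were higher and 26.9% lower in that comparison. T and NK cell markers had 2 of 10 tested higher there, below the share of all genes, from a sum of 5.4 CPM (2.57 to 14.3) to 8.44 (4.87 to 12.1), and B cell markers had 0 of 4 tested called, with sums of 3.35 (2.4 to 6.57) and 2.89 (2.48 to 4.55). Dendritic cell markers without Bst2 had sums of 37.3 CPM (33.4 to 48) and 33.8 (30.7 to 39.2). Hepatocyte markers fell as a sum from 101000 CPM (94100 to 104000) to 49200 (44800 to 60800), with 3 of 10 higher and 7 lower. Of 9 sinusoidal endothelial markers 2 fell under Control mAb, below the share of all genes. Their summed medians were 160 CPM (85 to 216) against 185 (113 to 250). Under Gcgr mAb 8 of the 9 fell, where 26.6% of all genes were lower. The summed medians there were 133 CPM (99.9 to 193) in Prkar1a KD against 222 (170 to 287) in Control AAV. The part of any of these cell types in the changes of the members was not tested.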

How the data were processed

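Liver RNA was measured in 90 samples. Per the labels' protocols, RNA was isolated with a MagMAX kit and treated with DNase, mRNA was selected on Dynabeads, and strand-specific libraries were made with a KAPA mRNA kit. Per the submitters' processing notes, bcl2fastq 2.17, FastQC and the GRCm38 (mm10) genome were used. The name of the aligner or counter was not given in the sources used here. As deposited by the authors, the data are 1 table of expected counts per gene in each experiment, keyed by Entrez identifier. The deposited values are not all whole (8.69% and 8.55% have a fractional part) and were rounded to whole numbers. No column was left unused.

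Symbols came from RefSeq (24375 of 24475 identifiers matched). Genes were filtered with filterByExpr and scaled by TMM, and each experiment was fitted as 1 model of its groups with edgeR 4.0.16 (R 4.3.3), glmQLFit and glmQLFTest, with p-values adjusted by Benjamini-Hochberg over all genes tested. CPM values use TMM-scaled totals and, on the log2 scale, a prior count of 2. CPM is not divided by gene length, so levels are not compared between genes. Every pair of libraries within a group differed beyond sampling noise (at least 7.52 times the expected chi-squared per degree of freedom), so none was counted as a duplicate. The scripts were tested on simulated data. DESeq2 1.42.0, limma-voom (limma 3.58.1), other scaling, no filter, a replicate block, fits of only the groups compared and leaving out each library were tried as alternatives.

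Members given with values by sample were, in each comparison with a control, the 4 called members with the smallest p, every member called against the majority direction, and Isg15, Oas2, Ifih1, Irf7, Stat2, Gbp2, Psmb8 and Cxcl10. The members and all lists were chosen with earlier results of these data known. Gene lists are described by counts and medians, with no test of a list. Signal transducers outside the set are not reported here. The comparisons of Gcgr KD and PKA KD with Gnas KD were added after the data had been examined. Promoter windows were read from RefSeq sequence of GRCm38.p6.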

Additional observations from a re-analysis of the deposited data

Results flagged for a closer look

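Within groups of 10 libraries, 216 sets of CPM values of named members were tested for 1 library far from the rest (Dixon's test at 95%). Chance flags about 1 in 20 such sets, and 15 stood out.

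Gcgr KD replicate 5 was high for Isg15 (55.9 CPM, next library 27.9), Gbp3 (31.4, next 20.4), Gbp7 (51.6, next 31) and Ifi27 (187, next 95.6). Control AAV + Gcgr mAb replicate 2 was high for Oas2 (10.1 CPM, next 4.45), Cxcl10 (16.6, next 7.47), Mx1 (4.49, next 3.22) and Oasl2 (15, next 9.02). That library also had the highest Kupffer cell marker sum of its group, 688 CPM. Its sums for monocyte and neutrophil (26.3 CPM), T and NK cell (12.8), B cell (9.69), dendritic cell (61.6) and hepatocyte markers (108000) were the highest as well, but not that for endothelial markers (267). Without it 1 member rather than 2 was called with the antibody alone. Control AAV + Control mAb replicate 10 was high for Gbp2 (15.6 CPM, next 8.18), Psmb8 (39.2, next 28.5) and Psmb9 (22.3, next 16.4). It had the highest sums of its group for monocyte and neutrophil (16.1 CPM), T and NK cell (14.3), B cell (6.57) and dendritic cell markers (48), but not for Kupffer cell (336), endothelial (186) or hepatocyte markers (95200). Replicate 3 of that group was high for Usp18 (24.8, next 16.7). Single values far from their group were Oasl2 in Gnas KD replicate 1 (14.3 CPM, next 10.8), Gbp6 in Epac2 KD replicate 3 (28.8, next 19.8) and Psmb9 in Prkar1a KD + Gcgr mAb replicate 8 (18.7, next 10.7).

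The change with Prkar1a KD differed between the antibodies, by the interaction test of edgeR with Benjamini-Hochberg adjustment, for 9 members: Oas1g (-1.5, adjusted p = 0.0314), Ifit1 (-1.4, 0.0274), Mx1 (-1.26, 0.0236), Zbp1 (-1.22, 0.0322), Ifit2 (-1.19, 0.0358), Parp14 (-0.965, 0.0124), Mx2 (-0.964, 0.0124), Trim30a (-0.93, 0.0198) and Stat2 (-0.404, 0.0418). In each of them the rise was smaller under Gcgr mAb, or, for Ifit2, the change there was -0.10.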

How the results depend on the processing

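No result changed direction under any alternative. Of 166 counts of called members under other settings, 154 stayed within 1.5 times the reported count, and of 600 counts with 1 library left out, 32 did not. For single named members, 14 calls were lost and 8 gained among 790 under other settings, and 87 lost and 21 gained among 2820 with 1 library left out. The member level moved by less than 1 SD with a prior count of 0.5, and TMM and RLE scaling differed by at most 0.02 in the median of all genes. Members called higher in Gnas KD numbered 0 by limma-voom and 2 in a fit of only the groups compared, which also gave 1 lower. Members lower in PKA KD were 2 by DESeq2 and 2 by limma-voom. For the antibody in Control AAV the count was 0 with no filter, 4 by DESeq2, 1 by limma-voom and 7 with only its groups. The interaction had 15 lower by DESeq2, 5 by limma-voom and 6 with no filter. The ISRE share of the members was 20.7% with 1 base and 20.7% with 3 bases between the repeats, against 3.7% and 3.17% of all genes.

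With 1 library left out, members higher ranged from 15 to 21 (Gcgr KD), 1 to 2 (Gnas KD), 18 to 24 (PKA KD), 30 to 36 (Gcgr KD against Epac2 KD), 31 to 33 (PKA KD against Epac2 KD), 2 to 5 (PKA KD against Gcgr KD, 5 without Gcgr KD replicate 5), 12 to 20 (Gcgr KD against Gnas KD), 17 to 22 (PKA KD against Gnas KD), 0 to 3 (antibody), 34 to 35 (Prkar1a KD under Control mAb) and 18 to 22 (under Gcgr mAb). Members lower ranged from 0 to 1 (Gnas KD), 1 to 2 (PKA KD), 10 to 16 (Epac2 KD), 2 to 5 (PKA KD against Gcgr KD), 1 to 2 (PKA KD against Gnas KD) and 4 to 17 (interaction). Counts moved by over 1.5 times as follows. The antibody had 0 without Control AAV + Control mAb replicate 2, 4, 5 or 7 or Control AAV + Gcgr mAb replicate 5, 6 or 7, and 1 without replicate 8 of the former or 2 or 10 of the latter. Members lower in PKA KD were 2 without PKA KD replicate 2, 4, 6, 7 or 8 or Control replicate 5, 6, 7 or 8. PKA KD against Gcgr KD had 4 higher without PKA KD replicate 5 and 5 lower without Gcgr KD replicate 4, PKA KD against Gnas KD had 2 lower without Gnas KD replicate 8, and Gnas KD had 2 higher without its replicate 4 and 1 lower without its replicate 8 or Control replicate 6 or 8. Isg15 in Gcgr KD was no longer called with no filter, by limma-voom, with the replicate block, in a fit of only its groups and in 9 fits with 1 library left out. The cause of these shifts was not tested.

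Samples share replicate numbers across groups, and the main fits did not treat the numbers as pairs. Same-numbered samples correlated above 0.1 in 1 to 7 of 10 pairs per comparison, with median correlations from -0.08 to 0.206. Differently numbered samples were not compared, so these values cannot decide whether the numbers pair the samples. With the replicate block, members higher were 16 in Gcgr KD, 17 in Gcgr KD against Gnas KD, 19 in PKA KD against Gnas KD, 32 in PKA KD against Epac2 KD, 1 with the antibody and 20 with Prkar1a KD under Gcgr mAb, and 6 were lower in the interaction, and it changed no other count. The interferon genes had too few counts to be tested, and low depth and absent expression cannot be told apart there.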
